A study of Mus musculus with 2 samples.

Results

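This report describes 33 genes of sterol and fatty acid synthesis in single cells of mouse gonadal white adipose tissue (gWAT). The genes were chosen as a list of symbols by their role, and all 33 were found among the 31054 genes of the count tables. They comprise 7 enzymes of the mevalonate steps, 11 enzymes from squalene to cholesterol, 6 genes of regulation and sterol transport, and 9 enzymes of fatty acid synthesis, elongation and desaturation. The cells came from male p16-CreERT2/Rosa26-LSL-tdTomato mice aged 18 months that had received tamoxifen. In these mice the Cre recombinase is expressed from the p16 gene, and tamoxifen lets it remove a stop sequence in front of tdTomato, so that cells which had p16 on at that time fluoresce. Cells lacking the endothelial marker CD31 and the blood cell marker CD45 were sorted by that fluorescence, and 1 droplet library was prepared from the Tom+ cells and 1 from the Tom- cells. Both groups carried the same alleles and the same tamoxifen treatment, and the sources used here do not name how many mice were pooled. With 1 library per condition there is no replicate error, and a difference between sorted groups cannot be told apart from a difference between preparations.

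Cholesterol is built from acetyl-CoA through mevalonate, isoprenoid units, squalene and a series of sterol intermediates, while fatty acids are built from the same acetyl-CoA by carboxylation, chain synthesis, elongation and desaturation. Both branches are controlled by SREBP factors, which SCAP carries out of the endoplasmic reticulum when sterols are scarce, while INSIG proteins hold them back when sterols are abundant. Fat tissue stores a large pool of cholesterol and makes fatty acids in its adipocytes, whereas the cells measured here are the stromal progenitors (APCs) and the mesothelial cells that cover the tissue.

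Unique molecular identifiers (UMIs) were summed over the cells of each class and scaled to counts per 1000000 UMIs (CPM). After removal of cells with 1000 or fewer genes, 7000 or more genes, or at least 8% mitochondrial UMIs, 3524 Tom+ and 6717 Tom- cells remained. Cells with at least 10 UMIs of 5 mesothelial genes (Msln, Upk3b, Krt19, Lrrn4 and Upk1b) formed the mesothelial class, with 250 Tom+ and 1887 Tom- cells. Cells with fewer than 5 such UMIs formed the stromal class, with 3263 Tom+ and 4800 Tom- cells. The median depth was 14235 and 11270 UMIs in Tom+ and Tom- stromal cells and 18601.5 and 14753 in the mesothelial cells. The reporter followed the sort: tdTomato stood at 211 and 13.1 CPM in Tom+ and Tom- stromal cells and at 780 and 8.25 CPM in the mesothelial cells. Another 10 mesothelial markers summed to 4695 and 4847 CPM in the mesothelial classes against 264 and 409 CPM in the stromal classes, while 10 stromal markers summed to 35477 and 35234 CPM in stromal and 15352 and 16974 CPM in mesothelial cells. Dcn gave most of the stromal marker sums, at 18504 and 22290 CPM in stromal and 9987 and 11318 CPM in mesothelial cells. Cd34 alone of these stromal markers was higher in mesothelial cells, at 435 and 417 CPM against 294 and 292 CPM. Despite the CD45 gate, 8 immune markers summed to 59952 and 14485 CPM in Tom+ and Tom- stromal cells, of which the immunoglobulin gene Igkc gave 45478 and 10759 CPM, and 139 Tom+ and 61 Tom- stromal cells held at least 2% immunoglobulin UMIs. A total of 2224 barcodes were listed in both tables, of which 506 in the Tom+ and 284 in the Tom- library passed the filters, and 9 passed in both. Among Tom+ mesothelial cells 100 of 250 had such a barcode, with a median of 29790.5 UMIs against 14418 for the others. The other classes had 404 of 3263 Tom+ stromal, 207 of 1887 Tom- mesothelial and 75 of 4800 Tom- stromal cells. The comparisons of classes and of sorted groups were repeated without barcodes listed in both tables. Between Tom+ and Tom- stromal cells 0 of 29 members were called higher and 1 lower, where 2.497% and 4.145% of all genes were. In mesothelial cells 0 of 30 were called, where 1.79% and 2.35% of all genes were called higher and lower. Against stromal cells 4 of 29 were higher and 17 lower in Tom+ mesothelial cells, where 19.48% and 20.04% of all genes were. In Tom- mesothelial cells 4 of 29 were higher and 13 lower, where 17.09% and 17.15% of all genes were. The quintile comparisons were not repeated in this way.

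The first comparison asked how the pathway differed between the 2 cell classes of the same library. Most sterol synthesis genes were lower in mesothelial than in stromal cells of both libraries, whereas the fatty acid genes split into members that were higher and members that were lower. The mevalonate enzymes summed to 244 CPM in Tom+ stromal cells (95% exact Poisson interval 240 to 248) and 119 CPM in Tom+ mesothelial cells (110 to 129). In the Tom- library the same sums were 233 and 124 CPM. The enzymes from squalene to cholesterol stood at 335 against 190 CPM in Tom+ and 308 against 193 CPM in Tom- cells. Fatty acid genes did not follow this order, with 309 CPM in stromal and 345 CPM in mesothelial Tom+ cells, and 261 and 302 CPM in the Tom- library. All intervals here cover counting error only.

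A gene was called higher or lower where its log2 ratio, less the median of all genes compared, reached 1.5-fold and its counting interval excluded that median. The comparison took in genes whose mean level reached 5 CPM, and 29 of the 33 passed this filter; Mvd, Lss, Tm7sf2 and Fads2 did not. In the Tom+ library 16 of the 29 were lower and 4 higher in mesothelial cells, where 19.3% and 18.9% of all 10240 genes were called lower and higher. In the Tom- library 14 of the 29 were lower and 4 higher, where 17.0% and 16.8% of 10019 genes were called. The same 13 genes were lower and the same 4 genes higher in both libraries, 4 further genes were called in 1 library, and none was called in opposite directions. The members had a median ratio of -0.63 (Tom+) and -0.55 (Tom-), against 0 for all genes by construction. These ratios are on the log2 scale, as are all ratios given with a sign or an interval.

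**Figure D1:**
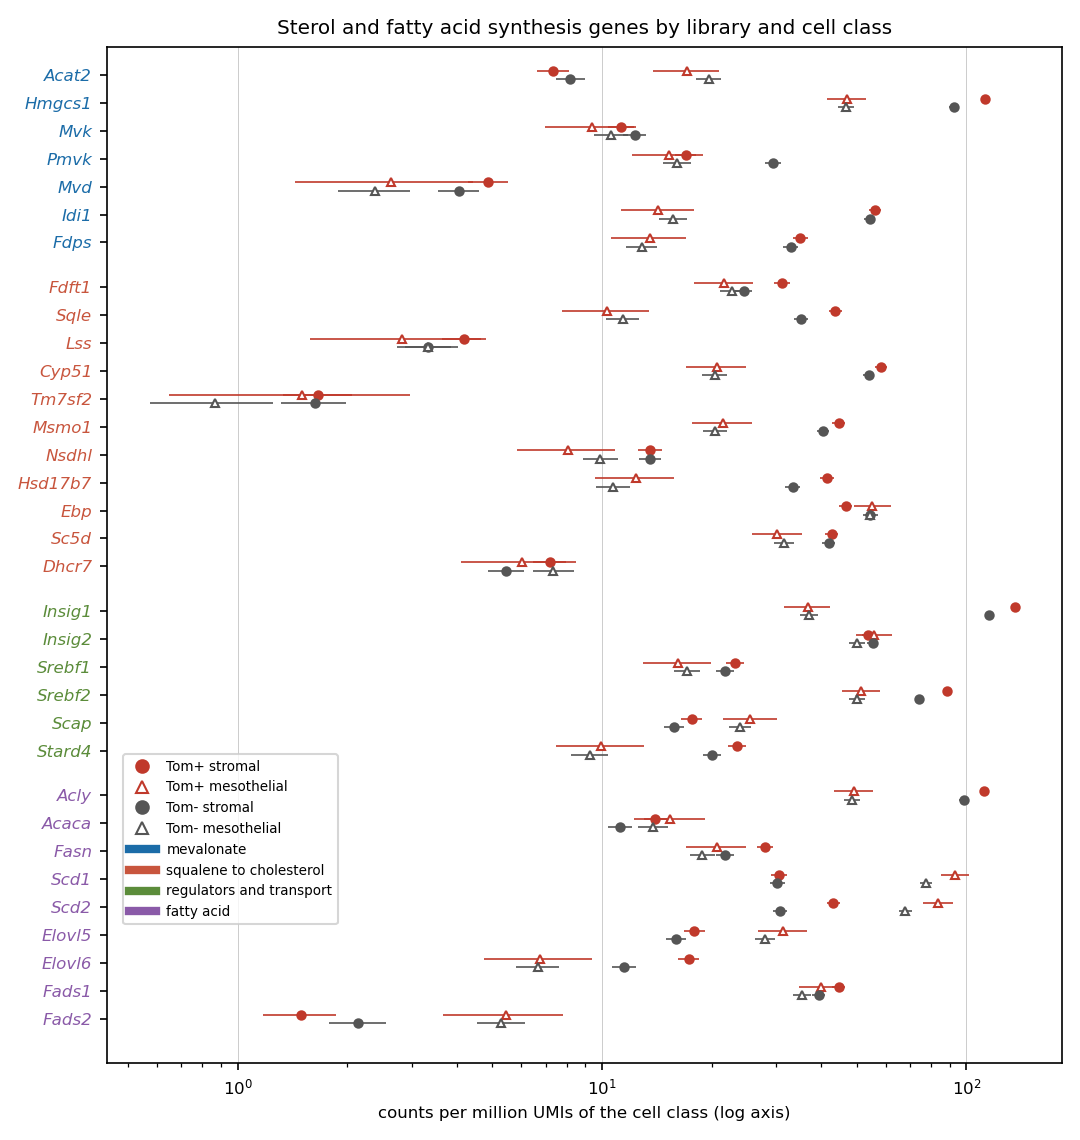
Level of each of the 33 genes, as counts per 1000000 UMIs (CPM) on a log axis, in Tom+ (red) and Tom- (grey) cells of the stromal (filled circles) and mesothelial (open triangles) class; bars are 95% exact Poisson intervals for counting error, and label colours mark the 4 roles. The triangles of Idi1, Sqle, Hsd17b7 and Insig1 lie left of the circles in both libraries, and those of Scd1, Scd2, Elovl5 and Acat2 lie right of them.

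Among the mevalonate enzymes, Idi1, the isomerase that interconverts the isoprenoid building blocks, showed the largest gap. Idi1 (chr13:8885501-8892451, plus strand, GRCm38) stood at 56.2 and 54.2 CPM in Tom+ and Tom- stromal cells and at 14.3 and 15.7 CPM in the mesothelial cells, a fall of 4.25-fold and 3.81-fold against the median gene. Hmgcs1, which makes HMG-CoA, stood at 112 and 92.3 CPM in stromal and 47.0 and 46.7 CPM in mesothelial cells. Its ratios were -1.37 (-1.56 to -1.19) in the Tom+ and -1.12 in the Tom- library. Fdps, the farnesyl diphosphate synthase, stood at 35.0 and 32.9 CPM against 13.5 and 12.9 CPM, and was called lower in both libraries. Both Tom+ and Tom- mesothelial cells thus lay below both stromal groups for these 3 enzymes.

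The first enzyme of the list went the other way. Acat2, the cytosolic thiolase that joins the first acetyl-CoA units, stood at 7.34 and 8.19 CPM in stromal and at 17.1 and 19.6 CPM in mesothelial cells. It was called higher in mesothelial cells of both libraries, with ratios of 1.11 (0.76 to 1.44) and 1.12 (0.95 to 1.30). Mvk, the mevalonate kinase, was not called in either library. Pmvk, the next kinase, stood at 16.9 and 29.5 CPM in Tom+ and Tom- stromal cells and at 15.2 and 16.1 CPM in the mesothelial cells, and was called lower only in the Tom- library, where its stromal level was highest.

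Of the squalene to cholesterol enzymes, Sqle, the squalene epoxidase that catalyses a rate-limiting step (chr15:59315077-59331192, plus strand, GRCm38), stood at 43.7 and 35.1 CPM in Tom+ and Tom- stromal cells. In the mesothelial cells Sqle was at 10.3 and 11.4 CPM, and its ratios were -2.19 (-2.61 to -1.81) and -1.76 (-1.92 to -1.60). Cyp51, the lanosterol demethylase, fell from 58.3 and 53.9 CPM in stromal to 20.7 and 20.4 CPM in mesothelial cells. Hsd17b7, which reduces a sterol ketone, stood at 41.4 and 33.3 CPM against 12.4 and 10.7 CPM. These 3 enzymes were lower by 2.91-fold to 4.57-fold across the 2 libraries.

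Smaller differences passed the same call for other steps. Msmo1, the sterol methyl oxidase, stood at 44.7 and 40.4 CPM in stromal and 21.4 and 20.5 CPM in mesothelial cells. Nsdhl, which decarboxylates the oxidised sterol, stood at 13.5 and 13.6 CPM against 8.08 and 9.89 CPM, with ratios of -0.86 and -0.59. Fdft1, the squalene synthase, and Sc5d, a sterol desaturase, were called lower in the Tom+ library alone, with ratios of -0.64 and -0.61 there and -0.25 and -0.55 in the Tom- library. Ebp, a sterol isomerase, and Dhcr7, which makes cholesterol from 7-dehydrocholesterol, were not called. Ebp stood between 46.7 and 55.2 CPM in all 4 groups, and Dhcr7 between 5.46 and 7.36 CPM. The lowered steps were thus not the whole chain.

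Of the 6 genes of regulation and transport, 4 were lower in Tom+ and 3 in Tom- mesothelial cells. Insig1, which retains the SREBP complex and is itself a target of SREBP, stood at 136 and 115 CPM in Tom+ and Tom- stromal cells and at 36.6 and 37.1 CPM in mesothelial cells, a difference of 4.01-fold and 3.42-fold against the median gene. Insig2, its relative that is not driven by SREBP in the same way, stood between 50.0 and 55.8 CPM in the 4 groups and was not called. Srebf2, which encodes the factor of sterol synthesis, stood at 88.6 and 74.3 CPM against 51.5 and 50.1 CPM, and its ratios were -0.90 and -0.71. Stard4, a soluble sterol carrier, stood at 23.5 and 20.04 CPM against 9.96 and 9.24 CPM. Srebf1, the factor linked to fatty acid synthesis, was called lower in the Tom+ library (-0.63) and not in the Tom- library (-0.49). Scap, the escort of both factors, was the only regulator with positive ratios, 0.42 and 0.46, and was not called.

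Fatty acid genes held members of both directions. Scd1, a stearoyl-CoA desaturase, stood at 30.6 and 30.2 CPM in Tom+ and Tom- stromal cells and at 93.0 and 77.4 CPM in mesothelial cells, with ratios of 1.49 (1.34 to 1.64) and 1.22 (1.13 to 1.31). Scd2, its paralog, stood at 43.2 and 30.8 CPM against 83.6 and 68.0 CPM. Elovl5, which elongates polyunsaturated chains, stood at 17.9 and 15.9 CPM against 31.4 and 28.0 CPM. All 3 were higher in mesothelial cells of both libraries.

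Acly, which supplies cytosolic acetyl-CoA from citrate, was lower in mesothelial cells instead, at 49.2 and 48.5 CPM against 112 and 98.3 CPM. Elovl6, which elongates saturated chains, stood at 6.76 and 6.68 CPM in mesothelial and 17.3 and 11.5 CPM in stromal cells. Acaca, Fasn and Fads1, which carry out the carboxylation, the chain synthesis and a desaturation, were not called in either library. Fads2, another desaturase of polyunsaturated fatty acids, lay below the filter, at 1.49 and 2.14 CPM in stromal and 5.45 and 5.28 CPM in mesothelial cells.

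Markers of macrophages differed between the libraries. Lyz2 and C1qa stood at 275 and 128 CPM in Tom+ mesothelial cells, at 130 and 31.4 CPM in Tom+ stromal cells, and at 20.5 CPM or less in both Tom- classes. Cells that held at least 3 UMIs of other types' markers, immunoglobulin genes aside, were then left out. Of 29 members 16 were lower and 4 higher in Tom+ mesothelial cells, where 20.8% and 19.2% of all genes were. In Tom- mesothelial cells 14 of 29 were lower and 4 higher, where 17.1% and 17.2% of all genes were. The medians were then -0.68 and -0.58.

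**Figure D2:**
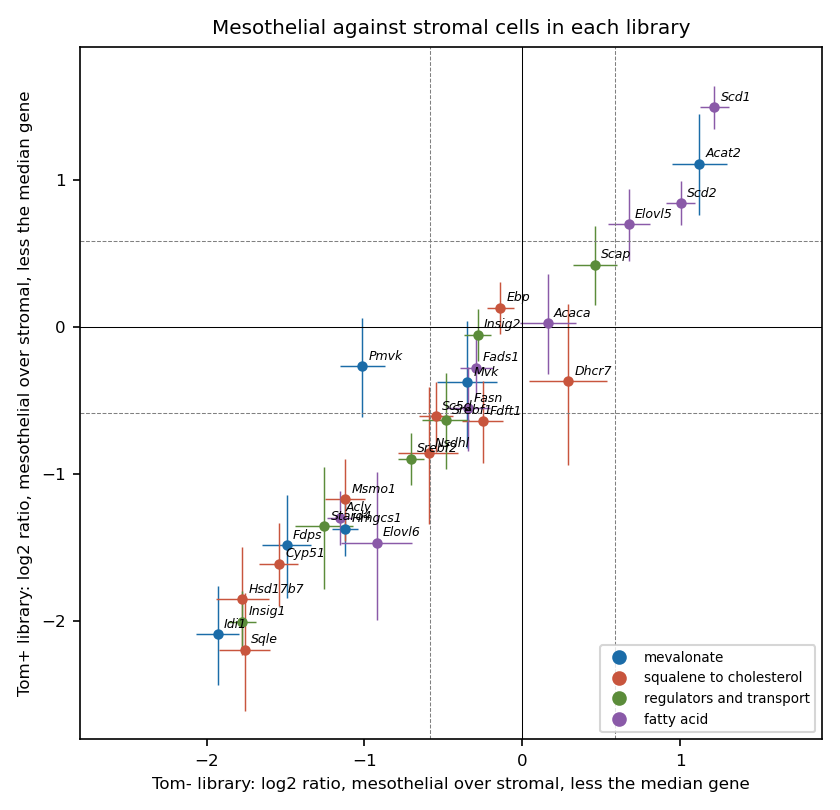
Log2 ratio of mesothelial over stromal cells, less the median of all genes, in the Tom- (x axis) and Tom+ (y axis) library for the 29 genes compared in both; bars are 95% counting intervals, dashed lines mark 1.5-fold and colours mark the role. Idi1, Sqle and Insig1 sit at the lower left and Scd1 and Acat2 at the upper right, while Pmvk lies apart at -1.01 in the Tom- and -0.27 in the Tom+ library.

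The second comparison set Tom+ against Tom- cells of the same class, the question for which the cells were sorted. Of the 29 members compared in stromal cells, 0 were called higher and 1 lower, where 2.67% and 4.03% of all 9778 genes were called higher and lower. The median of the members was 0.097, and 20 of the 29 lay above the median gene. In mesothelial cells 30 members were compared and 0 were called in either direction, where 1.64% and 1.29% of 10014 genes were called; their median was -0.010. No p-value can be given for these counts with 1 library per condition.

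Pmvk was the member called lower in Tom+ stromal cells, with 866 UMIs in Tom+ and 1706 UMIs in Tom- cells. Its level was 16.9 CPM (15.8 to 18.1) against 29.5 CPM (28.1 to 30.9), and its ratio was -0.87 (-0.99 to -0.75), with values from -1.06 to -0.69 over the alternatives. Part of the Tom- level came from few cells. In the Tom- library 51 stromal cells held at least 5 UMIs of Pmvk each and 22.6% of its UMIs, against 15 such cells and 11.8% in the Tom+ library. Without those cells the levels were 23.1 CPM in Tom- and 15.0 CPM in Tom+ stromal cells. In mesothelial cells Pmvk stood at 15.2 and 16.1 CPM.

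Most other sterol enzymes differed little between the sorted groups. The ratios of the 9 compared enzymes from squalene to cholesterol lay between -0.29 (Ebp) and 0.32 (Dhcr7) in stromal cells, and those of the 6 regulators between -0.12 (Insig2) and 0.18. Among the fatty acid genes Elovl6, at 17.3 and 11.5 CPM in Tom+ and Tom- stromal cells, had the highest ratio at 0.52 (0.37 to 0.66). Elovl6 lay below the 1.5-fold line of 0.58, with values from 0.20 to 0.65 over the alternatives. It passed the line, among the settings tried, when ratios were not centred (0.59) and when cells were thinned to the same depth (0.65). Scd2 followed, at 43.2 against 30.8 CPM and a ratio of 0.42 (0.33 to 0.51). In mesothelial cells the ratios were -0.013 for Elovl6 and 0.27 for Scd2.

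**Figure D3:**
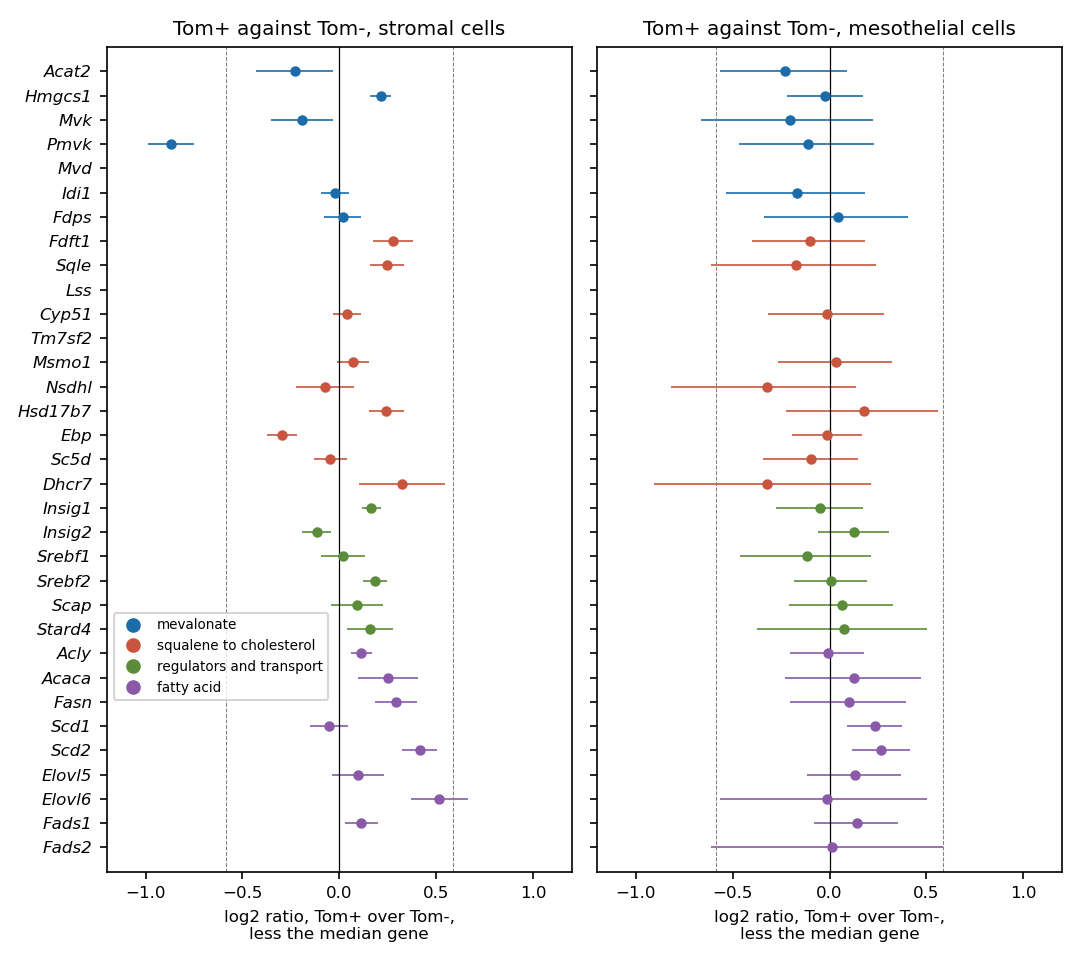
Log2 ratio of Tom+ over Tom- cells, less the median of all genes, for each member in stromal (left) and mesothelial (right) cells; bars are 95% counting intervals, dashed lines mark 1.5-fold, colours mark the role and genes below the filter are left blank. Pmvk at -0.87 in stromal cells is the only point beyond a dashed line, and the bars are wider in mesothelial cells, where the Tom+ library had 250 cells.

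The third comparison looked within each class, since class averages do not show how the pathway varied from cell to cell. Cells were thinned to 7563 UMIs each, and the UMIs of 20 sterol members (the mevalonate and squalene to cholesterol enzymes with Insig1 and Stard4) were counted per cell. Tom+ stromal cells held a median of 4 such UMIs, with 1 at the 10th percentile, 13 at the 90th and a highest count of 54. Tom- stromal cells held a median of 4, with 11 at the 90th percentile and a highest count of 62. The variance was 5.43 and 5.64 times the mean in the Tom+ and Tom- stromal cells, where counting error alone gives 1. In Tom+ and Tom- mesothelial cells the variance was 1.41 and 2.03 times the mean, around medians of 3 and 2 UMIs. The 90th percentiles there were 4.4 and 5 UMIs and the highest counts 17 and 55. The Tom- mesothelial value was not computed without its highest cell. The means themselves differed, at 5.81 and 5.21 UMIs per stromal and 2.67 and 2.71 UMIs per mesothelial cell. The 9 fatty acid genes gave 1.45 and 1.35 in stromal and 1.15 and 1.24 in mesothelial cells. Their means were 2.44 and 1.99 UMIs per stromal and 2.62 and 2.23 UMIs per mesothelial cell. In all 4 groups the sterol members thus had the higher variance over mean. The values were not adjusted for the unlike size and mean of the 2 lists.

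To see which members varied together, the stromal cells of each library were ranked, for each gene, by the share of UMIs from the 20 sterol members other than itself, and its level was compared between the top and bottom quintile. In the Tom+ library 23 of 31 members compared were higher and 1 lower in the top quintile, where 2.23% and 6.75% of 9733 genes that are not members were called higher and lower. In the Tom- library 19 of 30 were higher and 0 lower, where 2.57% and 5.76% of 9581 such genes were called. The 19 genes of the Tom- library were all among the 23 of the Tom+ library. Mvd in both libraries and Lss in the Tom+ library passed the 5 CPM filter only through the top quintile, where they were high, and were below it over all stromal cells. Without them 21 of 29 members were higher and 1 lower in Tom+, and 18 of 29 higher and 0 lower in Tom- cells. These values are a description of cells from 1 library each, because cells are not replicates.

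Sqle changed most, from 4.51 CPM in the bottom to 128 CPM in the top quintile of Tom+ cells and from 6.11 to 107 CPM in Tom- cells. Its ratios were 4.42 (4.01 to 4.85) and 3.95 (3.59 to 4.32). Idi1 went from 7.84 to 162 CPM in Tom+ and from 13.0 to 161 CPM in Tom- cells. Stard4 followed, from 4.25 to 57.9 CPM and from 4.82 to 54.4 CPM. The sterol carrier thus moved with the enzymes. Msmo1, Fdps, Hmgcs1, Cyp51, Insig1 and Fdft1 had ratios between 2.22 and 3.30 in the 2 libraries. Sc5d, Nsdhl, Hsd17b7, Mvk and Acat2 also passed the call in both, between 0.69 and 1.87.

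Not all enzymes joined in. Pmvk stood at 17.6 and 21.2 CPM in the bottom and top quintile of Tom+ cells and at 32.8 and 30.4 CPM in Tom- cells. Ebp stood at 40.0 and 52.4 CPM in Tom+ and at 49.3 and 57.9 CPM in Tom- cells. Its ratios were -0.023 and 0.048 against the median gene, which was itself higher in the top quintile. Dhcr7 was called in the Tom+ library alone (0.66 against 0.42). Of the members low over all stromal cells, Lss, the lanosterol synthase, stood at 2.04 and 8.42 CPM in the bottom and top quintile of Tom+ cells, and Mvd, which makes the first isoprenoid unit, at 2.94 and 9.02 CPM. Tm7sf2, a sterol reductase, stayed below the filter in both.

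Genes that were not part of the ranking were called in part. Srebf2 rose from 34.9 to 161 CPM in Tom+ and from 38.6 to 126.5 CPM in Tom- cells, while Srebf1, Scap and Insig2 were not called, with ratios between -0.065 and 0.58. Fasn, the fatty acid synthase, stood at 15.0 and 52.6 CPM in the bottom and top quintile of Tom+ cells and at 13.3 and 38.9 CPM in Tom- cells. Elovl6 and Scd2 were higher in both libraries. Acaca and Fads1 were called higher in the Tom+ library alone, Acly and Elovl5 in neither. Scd1 differed from Scd2, with ratios of -0.70 (-0.93 to -0.48), called lower, in Tom+ and -0.39 in Tom- cells.

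**Figure D4:**
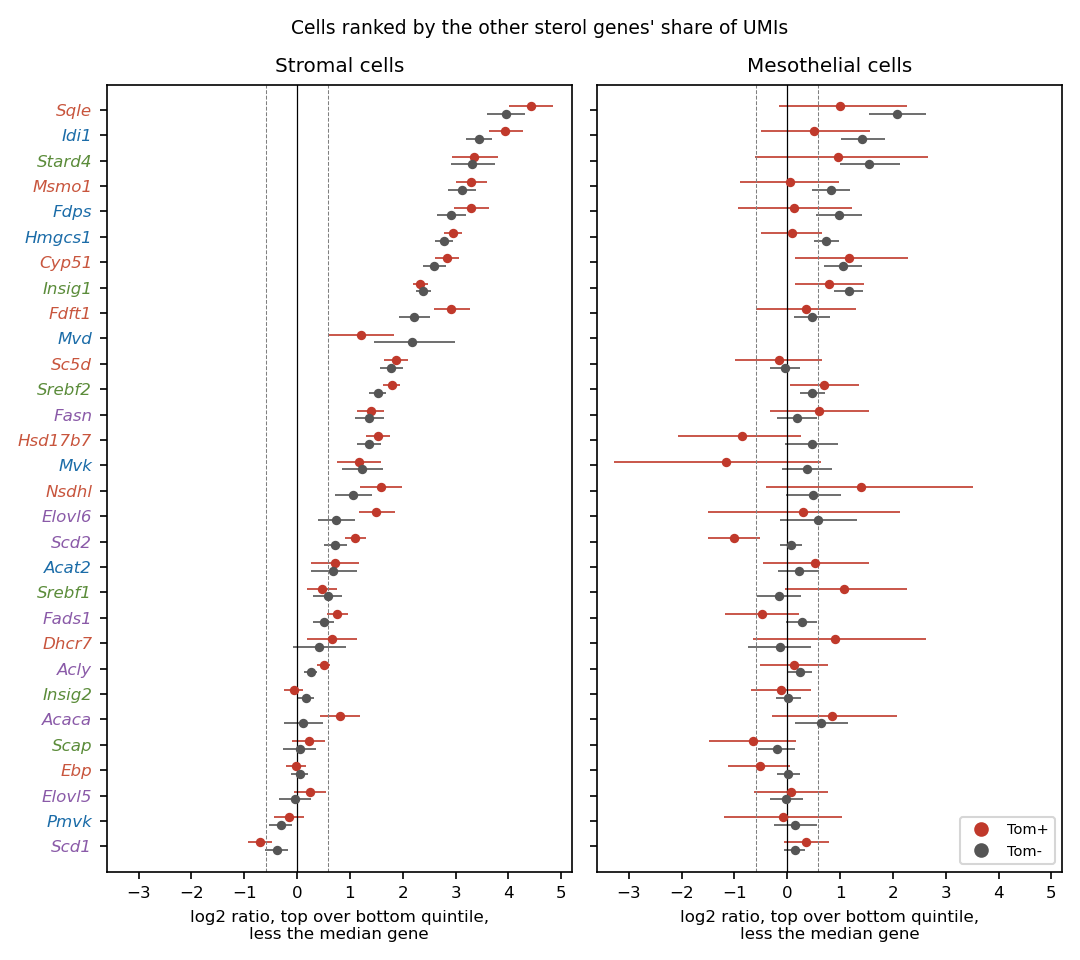
Log2 ratio of the top over the bottom quintile of cells ranked by the other sterol genes' share of UMIs, less the median of all genes, in stromal (left) and mesothelial (right) cells of the Tom+ (red) and Tom- (grey) library; bars are 95% counting intervals and dashed lines mark 1.5-fold. In stromal cells Sqle, Idi1 and Stard4 lie beyond 3 in both libraries, while the mesothelial values are smaller and have wider bars.

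The bottom quintile of this rank also held more immunoglobulin, with 8 immune markers at 213402 and 52181 CPM in Tom+ and Tom- cells against 1910 and 850 CPM in the top quintile. Without immunoglobulin-rich cells 23 of 31 members were higher and 1 lower in Tom+ and 20 of 30 higher and 0 lower in Tom- cells. These counts again took in Mvd, as all 7 mevalonate enzymes were compared. In Tom+ cells they also took in Lss or Tm7sf2, as 10 of the 11 enzymes from squalene to cholesterol were compared. Lss and Tm7sf2 lay below the filter over all stromal cells. No share over all genes is given for this setting. Sqle had ratios of 4.43 and 4.05 there. Depth was alike, with a median of 13814 and 14524 UMIs in the bottom and top quintile of Tom+ cells and 10650 and 11442 in Tom- cells. The 7 adipocyte markers summed to 10.6 and 24.7 CPM in the bottom and top quintile of Tom+ cells and to 2.82 and 26.5 CPM in Tom- cells, and their part in the result was not tested. Over all stromal cells the list summed to 20.7 and 10.6 CPM in Tom+ and Tom- cells. Its most abundant gene, Plin4, stood at 16.7 and 4.35 CPM and Adipoq at 0.411 and 1.61 CPM, and Lep was at 0 UMIs in the Tom+ cells.

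In mesothelial cells the same rank gave fewer calls. In the Tom- library 9 of 30 members were higher and 0 lower, where 3.37% and 1.15% of 9952 other genes were called. In the Tom+ library, with 50 cells per quintile, 3 were higher and 1 lower, where 4.89% and 2.83% of 10066 genes were called. With cells thinned to 1 depth 0 of 29 were higher and 1 lower in Tom+ mesothelial cells. In Tom- mesothelial cells 7 of 30 were then higher and 0 lower, and no share over all genes is given for this setting. Sqle stood at 6.27 and 27.2 CPM in the bottom and top quintile of Tom- mesothelial cells, a ratio of 2.07 (1.55 to 2.63), and Idi1 at 11.2 and 30.7 CPM. Cyp51 and Insig1 were called in both libraries, but with thinned cells the Tom+ ratio of Cyp51 was -0.26. The 10 stromal markers summed to 16575 and 18310 CPM in the bottom and top quintile of Tom- and to 15721 and 15453 CPM of Tom+ mesothelial cells. This rank was not repeated without marked doublets. The mesothelial ratios rest on fewer UMIs, and no test of the difference between the cell classes was possible with 1 library each.

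The start regions of the members were read from RefSeq (GRCm38.p6), which held windows for 26 of the 33 genes, from 250 bases before to 50 after each start. No window was found under the symbols Sqle, Fdps, Fdft1, Stard4, Scd1, Scd2 and Fads1. All of these but Scd1 and Fads1 were called higher in both libraries in the rank by sterol members, so the motif shares leave them out. The CCAAT box (CCAAT, on either strand), the site of the factor NF-Y that acts beside SREBP, was found in 21 of these 26 genes, 80.8%. It was found in 41.1% of all 27025 genes with a window and in 42.2% of the 7671 that passed the filter in stromal cells. The Sp1 motif (GGGCGG) was found in 80.8% of the members, 38.2% of all genes and 71.8% of the filtered genes, and the E-box (CACGTG) in 23.1%, 8.09% and 12.5%. A strict sterol regulatory element (TCACNCCAC) was found in 1 member, Hmgcs1, and in 1.44% of all genes. Motif letters in a window are a description and do not show binding. The 200 bases before the start are printed 5′ to 3′ for Hmgcs1, Idi1, Msmo1 and Cyp51, which moved together, and for Acat2. Acat2 was also called higher in the rank by sterol members in both libraries, and has no CCAAT box in its window. It was higher in mesothelial cells as well. CCAAT boxes on either strand are in capitals, and so is the sterol regulatory element of Hmgcs1.
Hmgcs1, chr13:119690151-119690350, plus strand: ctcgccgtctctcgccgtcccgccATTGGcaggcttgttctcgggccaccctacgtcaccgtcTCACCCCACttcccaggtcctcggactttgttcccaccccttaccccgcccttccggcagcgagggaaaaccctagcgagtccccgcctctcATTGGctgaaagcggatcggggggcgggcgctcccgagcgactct
Idi1, chr13:8885406-8885605, plus strand: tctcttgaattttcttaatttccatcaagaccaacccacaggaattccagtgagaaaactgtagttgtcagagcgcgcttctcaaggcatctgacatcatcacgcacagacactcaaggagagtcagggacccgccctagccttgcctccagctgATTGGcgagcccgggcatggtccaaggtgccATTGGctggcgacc
Msmo1, chr8:64733579-64733778, minus strand: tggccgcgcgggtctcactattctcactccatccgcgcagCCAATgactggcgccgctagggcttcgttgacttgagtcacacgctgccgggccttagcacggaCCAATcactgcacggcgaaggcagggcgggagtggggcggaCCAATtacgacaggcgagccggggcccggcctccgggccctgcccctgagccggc
Cyp51, chr5:4104698-4104897, minus strand: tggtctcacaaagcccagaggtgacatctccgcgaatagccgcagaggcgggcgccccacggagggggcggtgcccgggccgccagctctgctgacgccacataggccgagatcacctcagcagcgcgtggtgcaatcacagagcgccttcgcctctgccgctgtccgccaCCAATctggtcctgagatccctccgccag
Acat2, chr17:12960726-12960925, minus strand: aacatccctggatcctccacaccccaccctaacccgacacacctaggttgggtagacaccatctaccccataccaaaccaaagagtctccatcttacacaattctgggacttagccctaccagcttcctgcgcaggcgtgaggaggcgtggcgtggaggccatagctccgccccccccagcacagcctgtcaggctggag

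In the 200 bases printed, Hmgcs1 held 2 CCAAT boxes, the second of them downstream of its sterol regulatory element, and Idi1 also held 2. Msmo1 held 3, all on the strand of the gene, and Cyp51 held 1 near its start. CCAAT boxes were also found in windows of members that were not called in the rank by sterol members, with 2 in Ebp, 1 in Pmvk and 3 in Insig2, and no relation between the box and the ratios was tested.

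The last comparison asked whether the members followed the state of the stromal cells. A commitment score was taken as the share of UMIs from Pparg, Cebpa, Fabp4, Cd36 and Lpl, genes of the path to the adipocyte. Most of its UMIs came from Fabp4 (1109 and 964 CPM in Tom+ and Tom- stromal cells) and Lpl (888 and 900 CPM). The other genes of this score stood at 44.2 CPM or less. A second score was taken from Dpp4, Pi16 and Cd55, genes of an early progenitor group. In it Cd55 (187 and 214 CPM) and Pi16 (139 and 237 CPM) outweighed Dpp4 (60.7 and 50.7 CPM). In the top against the bottom quintile by commitment score, 9 of 29 members were higher and 0 lower in the Tom+ library, where 8.13% and 10.0% of 9811 genes were called. In the Tom- library 12 were higher and 2 lower, where 8.32% and 11.0% of 9709 genes were called. The 9 genes higher in both were Hmgcs1, Idi1, Fdps, Fdft1, Sqle, Cyp51, Msmo1, Sc5d and Stard4, which are 8 enzymes and the sterol carrier.

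Over the 5 quintiles from low to high commitment, Sqle stood at 21.1, 36.6, 46.5, 52.1 and 63.1 CPM in Tom+ cells. In Tom- cells Sqle stood at 18.8, 25.9, 28.4, 43.0 and 59.7 CPM. The level rose at each step in both libraries, and Sqle was 2.33-fold and 2.92-fold higher in the top quintile against the median gene. Hmgcs1 rose from 65.5 to 165 CPM in Tom+ and from 55.5 to 145 CPM in Tom- cells. Stard4 stood at 15.0 and 30.4 CPM in the bottom and top quintile of Tom+ and at 9.98 and 36.3 CPM in Tom- cells. Insig1, Srebf2 and Elovl6 passed the call in the Tom- library alone, and their Tom+ ratios were 0.55, 0.50 and 0.50. Dhcr7 and Scd1 were lower in the Tom- library, with ratios of -0.85 and -0.59, and stood at -0.049 and -0.080 in the Tom+ library.

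Markers of other cells moved with this score. The 7 adipocyte markers summed to 53.9 CPM in the top and 3.38 CPM in the bottom quintile of Tom+ cells, and to 41.0 and 1.91 CPM in Tom- cells. The 8 immune markers summed to 15803 and 201559 CPM in Tom+ and to 316 and 50139 CPM in Tom- cells. Without immunoglobulin-rich cells 10 of 30 members were higher and 1 lower in Tom+ and 12 of 29 higher and 2 lower in Tom- cells. With Fabp4 left out of the score, 4 of 30 were higher and 0 lower in Tom+ cells. In Tom- cells 9 of 29 were then higher and 1 lower. With the full score 8.13% and 8.32% of all genes were higher, and no such share is given for these settings. Both Tom+ sets of 30 took in Mvd, which was below the filter over all stromal cells. The part of adipocyte RNA in the result was not tested.

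Along the Dpp4 score several sterol members were lower instead. In the Tom+ library 0 of 29 members were higher and 4 lower in the top quintile, where 8.38% and 8.72% of 9833 genes were. In the Tom- library 2 of 29 were higher and 7 lower, where 8.47% and 8.53% of 9610 genes were. Idi1, Fdft1, Sqle and Cyp51 were lower in both libraries. Sqle stood at 54.2 CPM in the bottom and 31.8 CPM in the top quintile of Tom+ cells and at 48.6 and 21.2 CPM in Tom- cells, 1.87-fold and 2.30-fold lower against the median gene. Msmo1, Insig1 and Stard4 were lower in the Tom- library alone, and Scd1 and Scd2 were higher there, at 25.3 against 43.6 CPM and 27.3 against 41.5 CPM. The median score was 0 in the 2 lowest quintiles of both libraries, so that it did not order the cells between these quintiles. The immune markers summed to 101511 and 1146 CPM in the bottom and top quintile of Tom+ and to 21722 and 368 CPM in Tom- cells. Without immunoglobulin-rich cells 6 of 29 members were lower and 0 higher in Tom+ cells. In Tom- cells 8 of 29 were then lower and 3 higher, and no share over all genes is given for this setting.

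**Figure D5:**
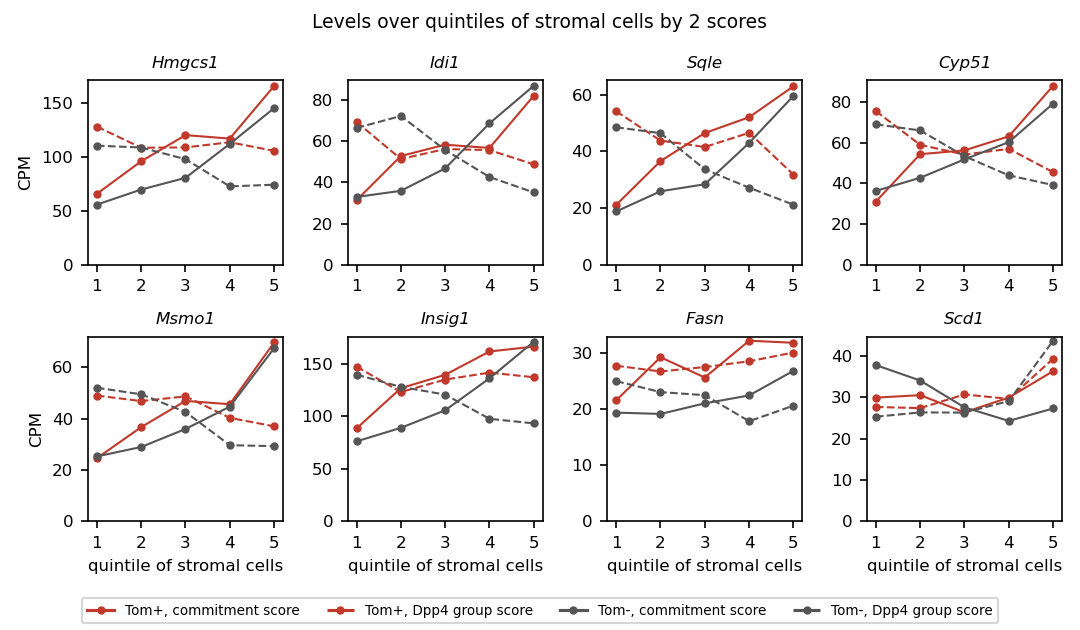
Level in CPM (y axis) of 8 members over quintiles of stromal cells from low to high score (x axis), for the commitment score (solid) and the Dpp4 score (dashed) in Tom+ (red) and Tom- (grey) cells, each point a sum over the cells of 1 quintile. Sqle, Idi1 and Hmgcs1 end higher than they start along the commitment score in both libraries, Sqle ends lower along the Dpp4 score, and Fasn was not called along either.

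Another 38 genes of sterol uptake, efflux, lipid activation and glyceride synthesis were examined as a list, of which 27 passed the filter in stromal and mesothelial cells. Against stromal cells 7 of them were lower and 3 higher in Tom+ mesothelial cells, and 9 lower and 3 higher in Tom- mesothelial cells. Over all genes compared, 19.3% were lower and 18.9% higher in Tom+ and 17.0% and 16.8% in Tom- mesothelial cells. Mylip, a ubiquitin ligase induced by oxysterol receptors, stood at 18.3 and 21.5 CPM in Tom+ and Tom- stromal cells and at 65.9 and 64.5 CPM in mesothelial cells, with ratios of 1.74 and 1.45. Nr1h3, which encodes the oxysterol receptor LXR alpha, stood at 21.2 and 21.8 CPM in stromal and 5.07 and 5.53 CPM in mesothelial cells, and Acsl4, a fatty acyl-CoA ligase, at 26.1 and 30.3 CPM against 68.0 and 60.5 CPM. Nr1h2, which encodes the related LXR beta, was called higher in Tom+ mesothelial cells (0.70) and not in Tom- (0.28), and Agpat2, an acyltransferase of glyceride synthesis, in Tom- (0.61) and not in Tom+ (0.56). Lpin1, a phosphatidate phosphatase, stood at 40.7 and 22.8 CPM in Tom+ and Tom- stromal cells and at 15.6 and 10.9 CPM in the mesothelial cells. Lpin1 was also the only 1 of the 27 called between Tom+ and Tom- stromal cells, with a ratio of 0.77 (0.67 to 0.87). In that comparison 2.67% of all genes were called higher and 4.03% lower.

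Some of these genes also differed along the rank of stromal cells by sterol members. There 4 of the 27 were higher and 1 lower in Tom+ cells, where 2.23% and 6.75% of genes that are not members were. In Tom- cells 5 were higher and 1 lower, where 2.57% and 5.76% were. Acsl3, another acyl-CoA ligase, was higher in the top quintile of both libraries, with ratios of 0.87 and 0.61. Mylip was called lower in both, at 22.4 and 11.6 CPM in Tom+ and 29.2 and 10.6 CPM in Tom- cells. Along the commitment score Mylip was lower as well, with ratios of -0.99 and -1.39, and Nr1h3 was higher, with ratios of 0.96 and 0.90. Of the 27 genes 5 were higher and 1 lower in Tom+ and 5 higher and 2 lower in Tom- cells along that score, where 8.13% and 10.0% of all genes in Tom+ and 8.32% and 11.0% in Tom- cells were called higher and lower. Along the Dpp4 score 1 of the 27 was higher in Tom+ and 2 in Tom- cells, where 8.38% and 8.47% of all genes were, and 0 were lower. Abca1, which exports cholesterol, was higher in both libraries. It stood at 139.8 and 248.6 CPM in the bottom and top quintile of Tom+ and 105 and 178 CPM of Tom- cells.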

How the data were processed

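Single-cell 3′ libraries were made by the authors from sorted Tom+ and Tom- cells, and Cell Ranger 3.0.2, as named in the submitters' processing notes, was used with the mm10 genome. The gene annotation version is not given in the sources used here. The authors deposited raw UMI counts for each gene in each barcode, 61119807 in the Tom+ table (5566 barcodes) and 96872394 in the Tom- table (11838 barcodes). Gene positions were taken from GENCODE on GRCm38, and 3′ UMI levels were not compared between genes.

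Counts were summed per library and cell class and scaled to CPM, with Python 3.11.15, numpy 2.4.6, pandas 2.3.3 and scipy 1.17.1. Levels carry exact Poisson intervals and ratios exact conditional (Clopper-Pearson) intervals at 95%, for counting error only. Ratios were centred on the median of all genes whose mean level reached 5 CPM. That median lay between 0.032 and 0.14 (log2) in the 4 comparisons of classes and sorted groups. In quintiles of Tom+ and Tom- stromal cells it was 0.41 and 0.18 for the rank by all sterol members. For the commitment score it was 0.36 and 0.12, and for the Dpp4 score 0.13 and 0.0052. Since each condition had 1 library, neither tests nor replicate errors are given. Scores were UMIs of the score genes per 10000 UMIs of a cell. The background for ranks by sterol members used the rank by all 20 of them. Doublets were not removed. Scrublet (scanpy 1.11.5) marked 2 Tom+ cells, 0.0568%, which is too few for it to have worked there. It marked 122 Tom- cells, 1.82%, of which 104 were mesothelial and 18 stromal. Leaving the marked cells out was an alternative for the comparisons between classes and between sorted groups. The quintile comparisons were not repeated in this way. The ratio and its intervals were tested on simulated data.

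The rule for named genes was to describe all 33 members by role, with full values for those called in at least 1 comparison, and the called genes of the 38 others, at most 4 in each direction by size. The members and lists were chosen with earlier results of these data known. The ranks within mesothelial cells, the per-cell UMI counts, the promoter motifs, the Pmvk cell counts, the filter over all stromal cells and the settings that leave out shared barcodes, immunoglobulin-rich cells or other types aside from immunoglobulin were added after the data were seen. Some called genes of the 38 are not reported here, although the counts over that list include them.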

Additional observations from a re-analysis of the deposited data

How the results depend on the processing

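Over the planned and added alternatives the members were lower in mesothelial cells in every setting, with medians from -0.78 to -0.47 in the Tom+ library. There 12 to 17 genes were lower and 3 to 5 higher, and in the Tom- library 11 to 18 were lower and 3 to 5 higher. The settings compared unlike numbers of members. With a minimum of 20 CPM 12 (Tom+) and 11 (Tom-) of 20 were lower, where 18.3% and 16.5% of all genes were. Then 3 of 20 were higher in each library, where 17.3% and 15.5% were. With the lower fold threshold tried 17 (Tom+) and 18 (Tom-) of 29 were lower, where 28.3% and 26.8% of all genes were. Then 5 of 29 were higher in each, where 28.1% and 26.4% were. The Tom- median was -0.41 when ratios were not centred on the median gene and -0.85 with a minimum of 20 CPM. Between Tom+ and Tom- stromal cells 1 of 29 members was called higher without centring (Elovl6), where 3.86% of all genes were. With thinned cells 1 of 29 was higher, where 2.77% of all genes were. With the lower fold threshold tried 3 of 29 were higher, where 11.7% of all genes were. Without a filter on low counts 2 of 33 were called lower, where 5.93% of all genes were. These member counts thus lay close to the shares over all genes. Without cells holding at least 3 UMIs of other types' markers, 66 Tom+ stromal cells remained. There 2 of 29 members and 4.64% of all genes were higher, and the median of the members was 0.307. This setting left 0 Tom+ mesothelial cells, so that it gave no value for the 2 comparisons that need them. In the commitment quintiles 1 member was lower in each library with thinned cells, 1 was lower in the Tom+ library without immunoglobulin-rich cells, 4 were higher in the Tom+ library and 1 was lower in the Tom- library without Fabp4 in the score, and by the Dpp4 score 4 were higher in the Tom- library with thinned cells. Among thinned mesothelial cells ranked by the other sterol members, 0 were higher in the Tom+ library, where Cyp51 reversed to -0.26, and Acaca reversed to -0.39 in the Tom- library. For these quintile settings no share over all genes is given, and the cause of the shifts was not tested. Of the other values, 186 counts and medians and 1917 single gene ratios stayed within their limits and 159 single gene ratios moved without reversing. Depth limits Mvd, Lss, Tm7sf2 and Fads2, which lay under the 5 CPM filter in the class comparisons, and every Tom+ mesothelial value, which rests on 250 cells. Leaving out a library was not possible with 1 per condition.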
